A study of Homo sapiens with 2 samples.

Results

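This report describes 9 human genes whose proteins modify the wobble base of tRNAs, the first base of the anticodon, in mitochondria or in the cytosol. The genes were chosen by name and function, and the rule used no measured value, although earlier results of these data were known: MTO1, GTPBP3 and TRMU for mitochondrial wobble uridines, ELP3, CTU1, CTU2 and URM1 for cytosolic wobble uridines, and QTRT1 and QTRT2 for queuosine. The transcript tables listed 133 of their transcripts among 206696 in all, and 9 of 59026 genes. The samples were 2 libraries of rRNA-depleted total RNA from untreated HEK293 Flp-In T-Rex cells, an established human embryonic kidney line that carries a recombination site for transgenes and a tetracycline repressor. Both libraries were of the same genotype and culture condition and formed 1 group, so no condition was compared and no p-value was computed. The labels do not say whether they came from separate cultures, so the spread between them may be technical.

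The wobble base pairs with the third base of a codon, and its modification tunes which codons a tRNA reads and how well. In mitochondria, MTO1 and GTPBP3 together place a taurinomethyl group on wobble uridines of several tRNAs, and TRMU adds sulphur to the same base in the tRNAs for glutamine, glutamate and lysine. In the cytosol, the Elongator complex, with ELP3 as its catalytic subunit, starts the modification of the corresponding uridines, and the CTU1-CTU2 enzyme thiolates them with sulphur carried by URM1, a ubiquitin-like protein. QTRT1 and QTRT2 form the tRNA-guanine transglycosylase that exchanges a wobble guanine for queuine in the tRNAs for aspartate, asparagine, histidine and tyrosine, in both compartments.

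The bases on which these enzymes act are shown in the anticodon arms of 5 mitochondrial tRNA genes, given from the reference mitochondrial genome of hg38 in the direction of the tRNA, as DNA, with the wobble base in capitals. The first 3 carry a wobble uridine (a T in the gene) of the kind modified by MTO1 and GTPBP3, and the last pair carry the guanine that QTRT1 and QTRT2 replace.
MT-TQ, tRNA for glutamine (chrM:4358-4374, minus strand): gagaattTtggattctc
MT-TE, tRNA for glutamate (chrM:14703-14719, minus strand): atggtttTtcatatcat
MT-TW, tRNA for tryptophan (chrM:5537-5553, plus strand): agagcctTcaaagccct
MT-TN, tRNA for asparagine (chrM:5687-5703, minus strand): cttagctGttaactaag
MT-TD, tRNA for aspartate (chrM:7541-7557, plus strand): taactttGtcaaagtta

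The transcripts of the enzymes differed in short segments, and 4 of these are printed because the transcript make-up described further on turns on them. Each is given from hg38 on the plus strand, with the segment that is present in some transcripts and spliced out of others in capitals and 15 bases on each side in lower case.
GTPBP3, extension of an exon (chr19:17341029-17341121): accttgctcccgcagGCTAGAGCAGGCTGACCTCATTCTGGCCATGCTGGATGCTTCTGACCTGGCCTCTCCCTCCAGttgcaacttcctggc
CTU2, coding exon (chr16:88715033-88715121): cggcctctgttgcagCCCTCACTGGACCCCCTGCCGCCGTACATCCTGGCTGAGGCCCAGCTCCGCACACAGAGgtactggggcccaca
MTO1, retained intron (chr6:73479830-73479950): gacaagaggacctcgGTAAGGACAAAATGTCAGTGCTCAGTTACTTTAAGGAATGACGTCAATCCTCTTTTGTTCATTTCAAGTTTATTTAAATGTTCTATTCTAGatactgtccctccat
URM1, extension of an exon (chr9:128377980-128378050): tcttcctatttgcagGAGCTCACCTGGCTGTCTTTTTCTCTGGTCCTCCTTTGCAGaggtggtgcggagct
The GTPBP3 and URM1 extensions both follow an AG and end in AG, the letters that close an intron at its 3′ end. The CTU2 exon lies between an AG and a GT, and the MTO1 intron begins with GT and ends with AG. The GTPBP3 extension (63 nt) is a multiple of a codon in length, whereas the CTU2 exon (59 nt) and the URM1 extension (41 nt) are not. No word of 30 bases from any of the 4 segments occurred in an annotated transcript of another gene.

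The libraries held 25158962 and 27143860 estimated counts, of which 96.9% and 96.8% fell on transcripts matched to GENCODE v44 by identifier. Normalised counts, the estimated counts divided by 1 size factor per library (0.945 and 1.08), were used for the same gene or transcript in both libraries. Genes were compared with each other per length only, as estimated counts divided by transcript length, scaled to 1000000 per library and summed over the transcripts of a gene. All 5 genes listed as markers of HEK293 cells were above 0 in both libraries, with summed normalised counts of 2379 and 2428. Most of this was NEFL (1868 and 1848), followed by INA (356 and 394). LHX1 (108 and 117), PAX2 (33.9 and 50.1) and NEFM (14.5 and 18.7) were lower. Of 4 markers of other cell types, PTPRC (leukocytes) and ALB (liver) were at 0, and HBB (red cells, 179 and 182 normalised counts) and COL1A1 (fibroblasts, 156 and 291) were not. HBB and COL1A1 lay above LHX1, PAX2 and NEFM and below NEFL and INA. The part of HBB and COL1A1 in the values below was not tested. In bulk RNA, fewer cells with a transcript and less of it per cell cannot be told apart.

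All 9 genes were measured in both libraries, with 210.0 to 1863 estimated counts each, and 8 of the 9 had a mean above the median of 9.28 per length over 13992 expressed protein-coding genes. The 3 with the highest levels per length were GTPBP3, TRMU and ELP3, and CTU1 was the lowest.

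Among the mitochondrial enzymes, GTPBP3, a GTPase, stood at 31.0 and 45.4 per length in replicates 1 and 2 (38.2 ± 10.2, SD, n = 2), above 86.6% of expressed coding genes. TRMU, the mitochondrial thiouridylase, stood at 28.5 and 29.3 (28.9 ± 0.534). MTO1, the FAD-dependent partner of GTPBP3, stood at 9.21 and 10.8 (9.98 ± 1.10), above 52.2% of these genes. The 2 partners in 1 reaction thus differed 3.37-fold and 4.22-fold in the 2 libraries, with GTPBP3 higher in both.

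Among the cytosolic genes, ELP3 stood at 29.6 and 25.6 per length (27.6 ± 2.82). URM1, the sulphur carrier, stood at 12.9 and 15.1 (14.0 ± 1.57). The 2 subunits of the thiolase differed, with CTU2 at 11.1 and 14.5 (12.8 ± 2.38) and CTU1, the subunit with the catalytic site, at 3.77 and 5.67 (4.72 ± 1.35), above 32.7% of expressed coding genes. CTU2 was 2.95-fold and 2.56-fold higher than CTU1.

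The subunits of the queuosine enzyme lay closer together. QTRT2, its accessory subunit, stood at 18.7 and 16.9 per length (17.8 ± 1.27), and QTRT1, the catalytic subunit, at 11.4 and 15.3 (13.3 ± 2.80). QTRT2 was the higher in both libraries, by 1.65-fold and 1.11-fold.

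**Figure D1:**
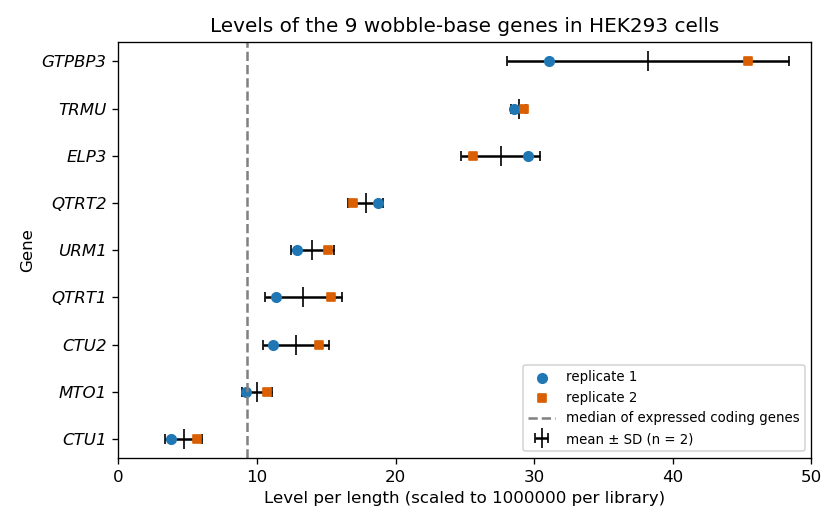
Level per length of each of the 9 genes (x axis, linear, scaled to 1000000 per library) in replicate 1 (circles) and replicate 2 (squares), with the mean and SD (n = 2) in black and the median of expressed coding genes as a dashed line. GTPBP3 lay highest and CTU1 lowest in replicate 2, at 45.4 and 5.67, and the 2 libraries spread most for GTPBP3.

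A pair of genes was called different where its order agreed between the libraries and its means differed by more than the sum of the 2 SDs. Of the 36 pairs, 34 were ordered alike in both and 28 (77.8%) were called, where 89.2% of all pairs of expressed coding genes were. In descending order of the means, GTPBP3, TRMU and ELP3 were not separated from each other, and TRMU and ELP3 exchanged places between the libraries. Both pairs with TRMU were called, with TRMU the lower, when TRMU-210, an upstream transcript described further on, was left out (24.3 ± 0.332). QTRT2 was separated from ELP3 above it and URM1 below it. URM1, QTRT1 and CTU2 were not separated from each other, nor were CTU2 and QTRT1 from MTO1, whereas MTO1 was separated from URM1 and from CTU1.

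The order rested in part on how length was counted. With protein-coding transcripts alone, GTPBP3 remained the highest (15.0 ± 0.976) but TRMU was at 10.8 ± 0.353 and MTO1 was the lowest (3.82 ± 0.800). With the gene total divided by the merged length of all exons of its listed transcripts, ELP3 was the highest (12.5 ± 1.86) and MTO1 again the lowest (1.80 ± 0.0629). TRMU was then at rank 7 (4.84 ± 0.192), and at rank 5 with protein-coding transcripts alone. The merged length of MTO1 was 12529 nt, and MTO1-212 alone, listed in another version than in the annotation, was 10698 nt. In the 3 per-length settings together, 12 of the 36 pairs were called in the same direction each time. In these, MTO1 was below GTPBP3, TRMU, ELP3, URM1 and QTRT2, GTPBP3 was above CTU1, CTU2, URM1, QTRT1 and QTRT2, and ELP3 was above CTU1 and URM1. The higher levels of CTU2 than CTU1 and of QTRT2 than QTRT1 were not among them.

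Between the libraries, none of the 9 gene totals differed by more than 2-fold (0 of 9), against 5.76% of the 19110 genes whose normalised counts averaged at least 10. CTU1 moved most, from 222 to 328 normalised counts (1.48-fold), followed by QTRT2, from 1322 to 1020 (1.296-fold lower in replicate 2). TRMU moved least, with 1203 and 1249. Normalised counts were 640 and 598 for MTO1, 1325 and 1680 for GTPBP3, and 1971 and 1566 for ELP3. CTU2 had 464 and 583, URM1 613 and 693, and QTRT1 405 and 521. As 6 of the genes were higher in replicate 2 and 3 were lower, the genes did not shift together.

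Single transcripts repeated less well than their genes. Of the 133 listed transcripts, 71 were above 0 in both libraries, 26 in 1 and 36 in neither. Of the 67 whose normalised counts averaged at least 10, 28 (41.8%) differed by more than 2-fold, with 1 count added to each value, against 29.6% of 67167 such transcripts in the whole tables. GTPBP3 held 11 of these 28 among its 18, TRMU 4 of 14, MTO1 3 of 7 and ELP3 3 of 7. Among the 28, 6 were at 0 in 1 library. Among those averaging at least 100, 4 of 20 differed by more than 2-fold, against 15.3% of 24473 in the whole tables.

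**Figure D2:**
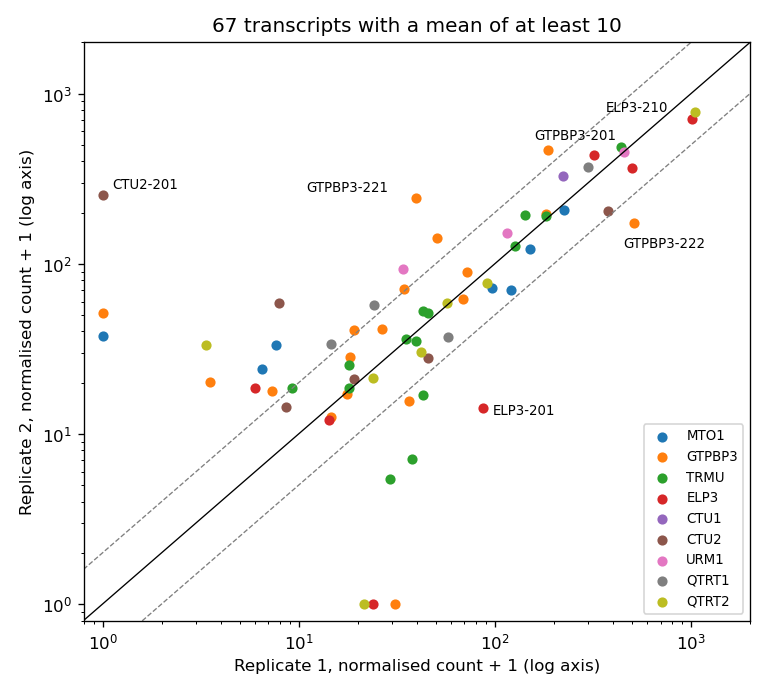
Normalised count plus 1 in replicate 1 (x axis, log scale) against replicate 2 (y axis, log scale) for the 67 transcripts of the 9 genes with a mean of at least 10, coloured by gene, with the line of equal values solid and the 2-fold limits dashed. The 28 points outside the dashed lines include CTU2-201 at the left edge, with 0 and 252, and GTPBP3-222 below them, with 509 and 172.

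The transcript with the highest count was the same in both libraries in 6 of the 8 genes with several transcripts, and differed in GTPBP3 and CTU2. With counts divided by length it was the same in 5 of the 8, as URM1-204, annotated for nonsense-mediated decay, led URM1 in replicate 2, where GTPBP3-221, of the same class, led GTPBP3. Over all such genes by counts, 21.5% of 16735 had another leading transcript in replicate 2. This set admitted weakly expressed genes, with totals down to 1. Where the cut-off on the gene total was raised to 100, which all 8 genes here exceeded, the share was 15.6%. CTU1 was listed with 1 transcript (ENST00000421832.2, 348 codons), so its make-up could not vary.

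In GTPBP3 (ENSG00000130299.17, chr19:17334920-17342731, plus strand, hg38), the form without the 63-nt extension led in replicate 1 and a form with it in replicate 2. GTPBP3-222 (ENST00000600625.5, 471 codons) held 38.4% of the gene's estimated counts in replicate 1 (exact Clopper-Pearson 95% interval 35.7 to 41.2%, which here as elsewhere covers counting error only) and 10.2% in replicate 2 (8.85 to 11.7%). GTPBP3-201 (ENST00000324894.12, 492 codons), the MANE Select form that the annotation takes as representative, held 14.0% and 27.8%. Over all GTPBP3 transcripts that span the site, those with the extension took 49.98% in replicate 1 (46.9 to 53.1%) and 81.9% in replicate 2 (79.6 to 83.9%). The total of the gene differed 1.27-fold. The intervals take every assigned count as 1 observation, and since the forms differ by little sequence they are too narrow, so the difference was not tested against the full error: 47 of the 2444 words of 50 bases in GTPBP3-222 (1.92%) were absent from GTPBP3-201, and 120 of 2517 (4.77%) the other way.

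Other GTPBP3 transcripts differed between the libraries as well. GTPBP3-221, annotated for nonsense-mediated decay, a pathway that degrades transcripts with an early stop codon, held 2.92% and 14.4%, and GTPBP3-203 (514 codons) 3.75% and 8.42%, both over 2-fold apart in normalised counts. GTPBP3-202 (524 codons) held 13.7% and 11.6%. The retained-intron transcripts GTPBP3-211 and GTPBP3-227 held 5.38% and 5.27%, and 5.13% and 3.65%.

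In CTU2 (ENSG00000174177.13, chr16:88706483-88715396, plus strand), the 59-nt exon printed above divided the libraries. CTU2-202 (ENST00000453996.6, 515 codons, MANE Select), which holds the exon, had 379 and 204 normalised counts, or 81.6% (77.6 to 85.1%) and 34.9% (31.2 to 38.8%) of the gene. CTU2-201 (ENST00000312060.9, 485 codons), which lacks it, was at 0 in replicate 1, where 3 counts, the limit set for a 0, would be 0.683% of the gene, and at 252 normalised counts in replicate 2, or 43.1% (39.2 to 47.1%). Over all CTU2 transcripts that span the exon, those that hold it took 99.1% (97.6 to 99.7%) and 55.4% (51.3 to 59.3%). Of the 1672 words of 50 bases in CTU2-202, 117 (6.998%) were absent from CTU2-201, and 68 of 1623 (4.19%) the other way. CTU2-208, a retained-intron transcript, held 9.62% and 4.59%, and CTU2-210 (586 codons) 1.504% and 9.89%.

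**Figure D3:**
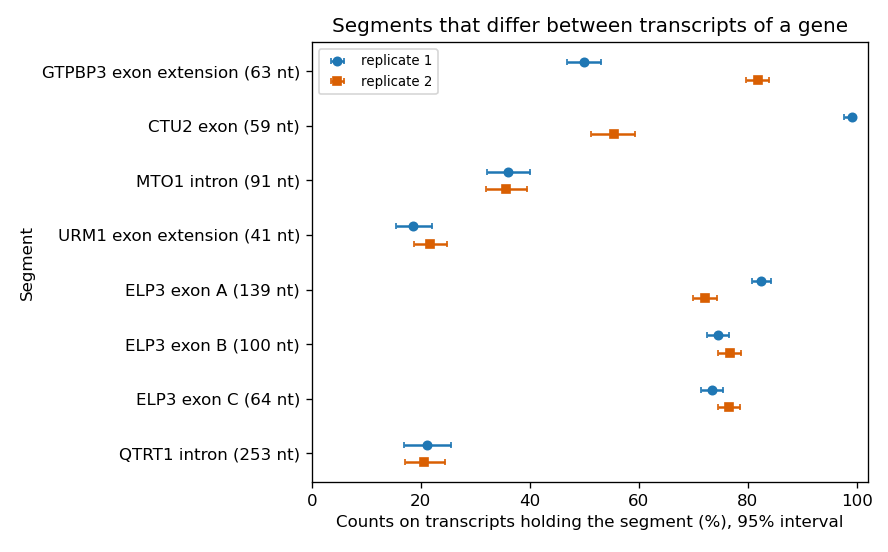
Share of estimated counts on transcripts that hold each of 8 segments, among transcripts that span it (x axis, %), in replicate 1 (circles) and replicate 2 (squares), with exact 95% intervals for counting error. The intervals of the 2 libraries lie apart for the GTPBP3 extension (49.98 and 81.9%), the CTU2 exon (99.1 and 55.4%) and ELP3 exon A (82.5 and 72.2%), and overlap for the other 5.

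In MTO1 (ENSG00000135297.17, chr6:73461578-73509236, plus strand), 18 of 79 annotated transcripts were listed, and the leading one carried no annotated coding sequence. MTO1-203 (ENST00000370308.8), which retains the 91-nt intron printed above, held 35.1% (31.4 to 39.2%) and 34.6% (30.9 to 38.4%). Over all coding genes with several transcripts, 10.6% of 12915 were led by a transcript outside the protein-coding class, and among the 8 genes here MTO1 was the only 1 by counts. Per length URM1 was a further 1, with a mean share of 47.3% for URM1-204 and 45.7% for URM1-203. The protein-coding MTO1-202 (643 codons), MTO1-201 (717 codons) and MTO1-212 (692 codons, MANE Select) followed with 23.4% and 20.2%, 18.8% and 11.6%, and 15.0% and 11.9%. MTO1-203 was the only listed transcript with this intron. The same counts were 36.02% (32.2 to 40.1%) and 35.7% (31.9 to 39.6%) of those of transcripts that span it. MTO1-204, annotated for nonsense-mediated decay, was at 0 and 6.14%, and the retained-intron MTO1-209 at 1.04% and 5.37%.

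In TRMU (ENSG00000100416.15, chr22:46330875-46357340, plus strand), the MANE Select transcript TRMU-223 (ENST00000645190.1, 421 codons) led with 36.4% (33.6 to 39.3%) and 38.5% (35.9 to 41.2%). The next 3 carried no coding sequence: TRMU-210 held 15.1% and 15.2%, TRMU-215 10.4% and 10.2%, and TRMU-213 11.7% (9.89 to 13.7%) and 15.5% (13.6 to 17.6%). TRMU-210, looked at after its share was seen, ends 2014 bases upstream of the start of TRMU-223 and shared exon bases with 1 other listed TRMU transcript, TRMU-214 (286 nt). Without it the level of TRMU was 24.3 ± 0.332 per length in place of 28.9 ± 0.534.

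In ELP3 (ENSG00000134014.18, chr8:28089673-28191156, plus strand), close to 1 count in 2 was assigned to transcripts annotated for nonsense-mediated decay. The coding ELP3-210 (533 codons) led with 51.3% (49.0 to 53.6%) and 45.3% (43.0 to 47.8%). ELP3-205 held 25.2% and 23.2%, and ELP3-204 held 16.2% (14.6 to 18.0%) and 27.6% (25.5 to 29.8%), both of them annotated for decay, with coding sequences of 41 and 45 codons. They lack different exons, ELP3-204 a 139-nt exon (exon A) and ELP3-205 a 100-nt and a 64-nt exon (B and C), none of them a multiple of 3 in length. Transcripts with exon A took 82.5% (80.7 to 84.2%) and 72.2% (70.0 to 74.4%) of the estimated counts of transcripts that span it. For exon B this share was 74.6% and 76.7%, and for exon C 73.5% and 76.6%, with intervals that overlapped between the libraries. The MANE Select transcript ELP3-201 (547 codons) held 4.37% and 0.838%.

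In URM1 (ENSG00000167118.11, chr9:128371361-128392016, plus strand), URM1-203 (ENST00000372853.8, 101 codons, MANE Select) led with 74.3% (70.4 to 77.7%) and 65.0% (61.5 to 68.5%). URM1-204, annotated for decay, holds the 41-nt extension and had 18.6% and 21.6%, which was the whole of the share with this extension (15.5 to 22.0% and 18.8 to 24.8%). Since URM1-204 is 723 nt long against 2595 nt for URM1-203, transcripts with the extension took 47.3% ± 4.44 (SD, n = 2) when counts were divided by length. URM1-202 (63 codons) held 5.40% and 13.3%.

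By counts, the queuosine genes were each dominated by 1 transcript in both libraries. QTRT1-201 (ENST00000250237.9, 403 codons, MANE Select) held 73.6% (68.9 to 78.0%) and 71.1% (67.2 to 74.9%) of QTRT1 (ENSG00000213339.9, chr19:10701430-10713437, plus strand). QTRT1-202, annotated for decay, held 14.0% and 6.88%, and the retained-intron QTRT1-206 and QTRT1-208 held 5.74% and 10.7%, and 3.37% and 6.31%. A 253-nt intron lies near the 3′ end of the gene (chr19:10712300-10712552). Transcripts that retain it took 21.1% (16.9 to 25.6%) and 20.6% (17.2 to 24.4%) of the estimated counts of transcripts that span it. QTRT2-212 (ENST00000485050.5, 427 codons) held 79.7% (77.3 to 81.9%) and 76.9% (74.2 to 79.3%) of QTRT2 (ENSG00000151576.10, chr3:114005833-114088422, plus strand). With counts divided by length, QTRT2-212 held 52.7% and 44.2%, and QTRT1-201 held 71.2% and 66.9%. QTRT2-207, with a retained intron, held 6.81% and 7.47%, and QTRT2-215 (309 codons) 4.24% and 5.69%. The MANE Select transcript QTRT2-201 (415 codons) held 0.865% in replicate 1 and was at 0 in replicate 2, where the same limit is 0.273%.

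The MANE Select transcript did not lead in 4 of the 8 genes with several transcripts, MTO1, GTPBP3, ELP3 and QTRT2, by the mean share of both libraries, against 41.0% of 12218 such coding genes. This count, and that of leaders outside the protein-coding class, were chosen after the values were seen. In ELP3 and QTRT2 the leading and the MANE Select form shared most of their sequence: 3.35% of the 3109 words of 50 bases in ELP3-210 were absent from ELP3-201, and 1.26% of the 3795 in QTRT2-212 from QTRT2-201.

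Summed by annotated class, protein-coding transcripts held 100% of CTU1, 91.2% ± 3.59 of CTU2 and 88.3% ± 0.396 of QTRT2, and less in the other 6 genes (SD, n = 2 throughout). The lowest shares were those of TRMU (40.0% ± 0.212), ELP3 (51.4% ± 6.44) and MTO1 (51.5% ± 9.52), which lay above 8.04, 11.5 and 11.6% of 13955 coding genes. The median over the 9 genes was 72.4%, beside 92.6% over these coding genes, and 1 of the 9 lay above the latter. That gene was CTU1, whose 1 listed transcript fixes its share at 100%. Class shares, here and below, depend on how many transcripts of each class are listed for a gene. The coding genes were not matched for this. Divided by length, the median over the 9 genes was 52.7%.

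The classes that made up the rest differed between the genes. Retained-intron transcripts held 41.7% ± 5.39 of MTO1 and 35.0% ± 1.89 of TRMU, shares above those of 96.3 and 95.03% of coding genes, and 16.9% ± 0.272 of GTPBP3 and 15.6% ± 6.94 of QTRT1. Transcripts annotated for nonsense-mediated decay held 46.7% ± 5.73 of ELP3, a share above that of 96.3% of coding genes, and 20.1% ± 2.15 of URM1. Transcripts without a defined coding sequence held 22.1% ± 1.34 of TRMU, most of it from TRMU-210 (15.1% and 15.2%). The median share over coding genes was 0.626% for retained introns and 0% for decay.

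**Figure D4:**
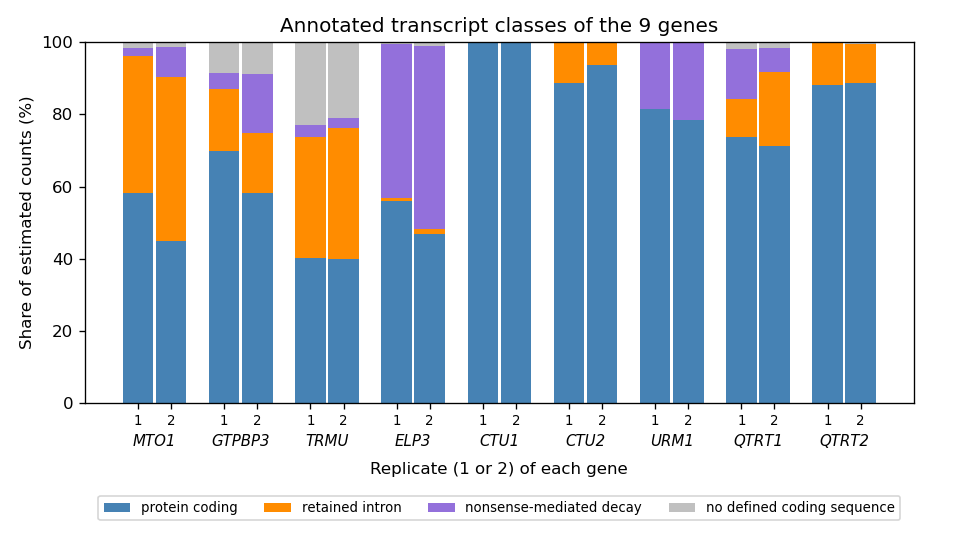
Share of the estimated counts of each gene (y axis, %) on transcripts of 4 annotated classes, in replicates 1 and 2 side by side. MTO1 and TRMU show the largest retained-intron shares (41.7% and 35.0% on average), ELP3 the largest share annotated for nonsense-mediated decay (46.7%), and CTU1 is wholly protein coding.

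Exons of some of these genes overlap exons of genes on the opposite strand, and the strand setting of the counting is not given in the sources used here, so reads there cannot be assigned with certainty. MTO1 shares 119 nt with EEF1A1, the translation elongation factor, which had 226368 and 187393 normalised counts against 640 and 598 for MTO1. The 119 nt are 4.54% of MTO1-203 and 1.11% of MTO1-212. CTU2 shares 59 nt with PIEZO1 (3265 and 4899 normalised counts) and 294 nt with the lncRNA ENSG00000278341 (9.71 and 17.5). These overlaps cover 198 nt of CTU2-202 (11.5%) and 188 nt of CTU2-201 (11.2%). URM1 and QTRT2 share 10 nt and 130 nt with MIR219A2HG and CCDC191, the latter within QTRT2-208 alone. None of the 8 segments compared lies in an overlap (0 of 8). The part of these overlaps in the counts was not tested.

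The other genes of wobble-base modification were taken from a list of 24 with known roles. Their levels per length ran from 1.72 to 171, with a median of 16.9 beside 14.0 for the 9 genes above, and 13 of the 24 lay within the range of those 9, 5 above and 6 below. Between the libraries, 1 of the 24 differed by more than 2-fold, ADAT3, with log2 of replicate 2 over replicate 1 at 1.16.

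For the cytosolic uridine, the other Elongator subunits described here, ELP2, ELP4, ELP5 and ELP6, were all above the coding median. ELP5 stood at 59.1 and 58.0 per length (58.5 ± 0.740), ELP2 at 39.2 and 28.6, ELP6 at 24.7 and 25.8, and ELP4 at 17.2 and 12.2. ELP3, at 29.6 and 25.6, was separated from ELP5 above it and from ELP4 below it, and not from ELP2 or ELP6. These were 2 of 4 pairs, against 89.2% of all pairs of expressed coding genes, and other ways of counting length are not given for them. Of the 14 listed transcripts of ELP5, 3 had the same version in the annotation, so its lengths may differ from those in the counting. The partners KTI12 and DPH3 stood lower, at 6.76 ± 0.0931 and 7.47 ± 2.17.

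Sulphur for CTU1 and URM1 and for TRMU comes from the cysteine desulphurase NFS1, at 23.1 ± 0.0724 per length, with its partner LYRM4 at 24.3 ± 0.616. MOCS3, which activates URM1, was the lowest of the 24 (1.72 ± 0.150), below URM1 (14.0) and CTU1 (4.72), whereas the sulphurtransferase MPST stood at 56.4 ± 6.75. The 1 listed transcript of MOCS3 had another version in the annotation, so its length may differ from that in the counting. ALKBH8, which acts on the uridine after Elongator, stood at 3.08 ± 0.0646, and TRMT112, its partner and that of other methyltransferases, at 110.1 ± 1.11.

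For the mitochondrial uridine, the taurine transporter SLC6A6 stood at 19.2 ± 1.55 per length and SHMT2, which supplies one-carbon units in mitochondria, at 171 ± 12.6, the highest of the 24. For queuosine, QNG1, which salvages the base, stood at 12.8 ± 1.25, close to QTRT1 (13.3). GTDC1 and B3GNTL1, listed for its glycosylation, stood at 3.54 ± 0.263 and 1.98 ± 0.631.

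Of the enzymes for other wobble bases, ADAT2 and ADAT3, which deaminate adenosine to inosine, stood at 6.34 ± 0.912 and 2.26 ± 1.34 per length. NSUN3, which methylates a mitochondrial wobble cytidine, stood at 2.92 ± 0.0123, and ALKBH1, which oxidises it, at 9.10 ± 0.217. NSUN2 stood at 39.2 ± 2.67, and the ribose methyltransferase FTSJ1 and its partner WDR6 at 21.6 ± 0.667 and 25.5 ± 0.659.

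**Figure D5:**
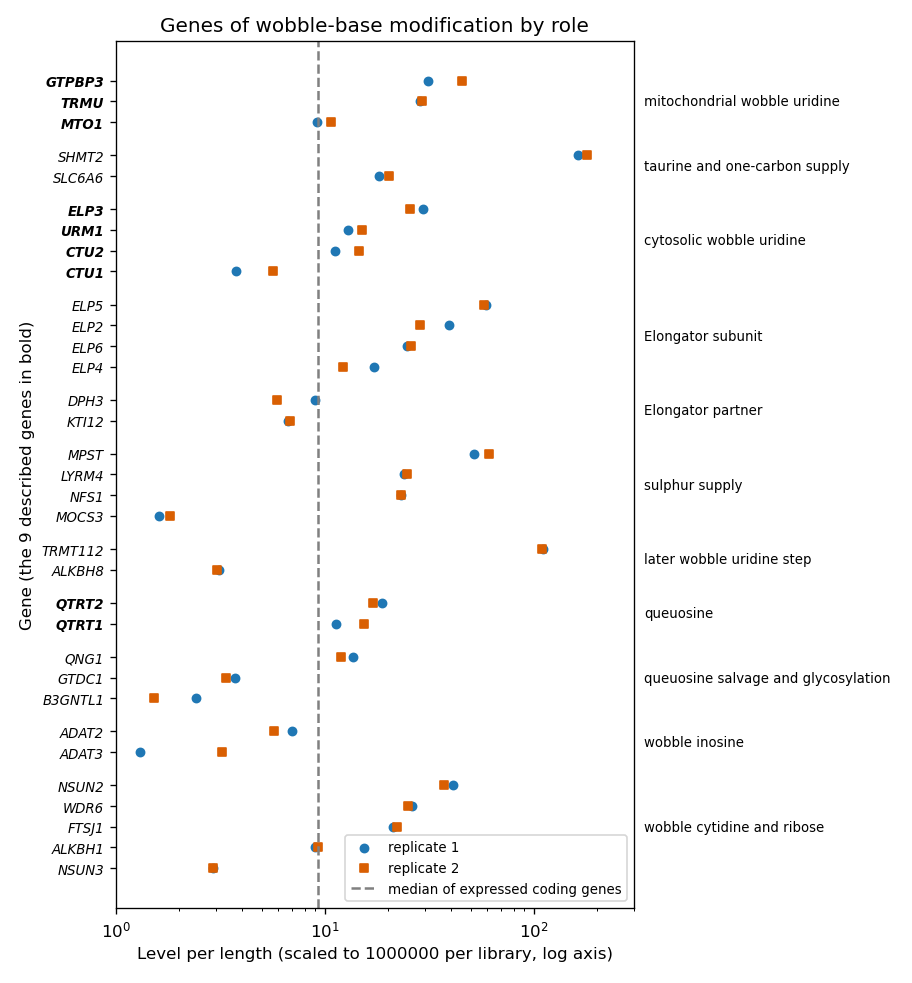
Level per length (x axis, log scale, scaled to 1000000 per library) of the 9 genes (bold) and 24 other genes of wobble-base modification, grouped by role, in replicate 1 (circles) and replicate 2 (squares), with the median of expressed coding genes as a dashed line. SHMT2 (171) and TRMT112 (110.1) lie highest and MOCS3 (1.72) lowest, and the points of ADAT3 lie furthest apart.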

How the data were processed

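Total RNA from 2 HEK293 Flp-In T-Rex libraries was DNase treated, depleted of rRNA and sequenced (TruSeq). The deposited tables hold, per transcript, estimated (expected) counts from RSEM and a normalised signal that the authors obtained by dividing the estimated counts by 1 size factor per library. The submitters' processing notes name FastQC, STAR 2.7.0d, RSEM 1.3.3 and R 3.6.3. The strand setting is not given in the sources used here.

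Transcripts were matched by identifier without version to GENCODE v44 (202217 of 206696). Of the 133 transcripts of the 9 genes, 116 had the same version there and 17 another, including 7 of the 9 MANE Select transcripts, so that the lengths used may differ from those in the counting. The 133 stand beside 195 transcripts of these genes in the annotation. The tables listed 18 of 79 for MTO1, 19 of 20 for ELP3 and all for the other genes. The make-up of MTO1 thus covers only part of its annotated transcripts. Shares are of estimated counts, with exact 95% intervals on rounded counts, and a count of 0 was given an upper limit of 3 counts. Segment shares sum the estimated counts of whole transcripts, and reads across a segment were not counted by themselves. With 1 group of 2 libraries, values are means ± SD and calls are of size alone (over 2-fold, or a difference above the sum of both SDs). All 9 genes were named, with transcripts holding at least 5% in either library. The genes and lists were chosen with earlier results of these data known, and the segments, the removal of TRMU-210 and the division of segment shares by length after their values were seen. A few planned items are not reported here. The leading-transcript call and the 2-fold call on genes were tested on simulated counts, without error from reads shared between transcripts. Pair calls, class shares and segment shares were not part of that test. Python 3.11.15, pandas 2.3.3, scipy 1.17.1 and numpy 2.4.6 were used.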

Additional observations from a re-analysis of the deposited data

How the results depend on the processing

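Of 44 alternatives to the values above, 21 left a count within 1.5 times or a value within 1 SD, 21 moved further and 2 reversed. Counts within that limit could still change in their calls. The cause was not tested. Of the 44, 12 were log2 ratios of single gene pairs, all among those that moved or reversed. All 12 changed sign, including those counted as moved. Ratios of other pairs were not entered, so these totals do not measure how stable the values are. The log2 ratio of TRMU to QTRT2 turned from 0.70 to -0.33 with protein-coding transcripts alone, and that of MTO1 to CTU1 from 1.08 to -1.39 with merged exon lengths. These 2 were counted as reversed, whereas TRMU to CTU2, from 1.17 to -0.0850 with protein-coding transcripts alone, was counted as moved. The number of called pairs of 36 was 28, and 27 with protein-coding transcripts, 20 with merged exon lengths, 28 without division by length, 34 by order alone and 30 without TRMU-210. No gene of the 9 passed 2-fold under any of 4 alternatives. Without the filter on low counts, 15.4% of all genes did. With a mean of at least 100, 4 transcripts differed by over 2-fold. The leading transcript was the same in 6 of 8 genes, and in 5 per length. The mean share of the leading transcript over 8 genes was 52.9%, from 47.1 to 58.8% in single libraries, 75.9% among protein-coding transcripts and 41.2% per length. The median protein-coding share was 72.4%, from 71.1 to 73.6% in single libraries, 52.7% per length and 43.5% with transcripts of the same version alone. The pair calls need both libraries, so none was left out there. No paired analysis was possible because the libraries form 1 group. Low counts per gene limit the smaller shares, and reads shared between transcripts add an error that the intervals do not cover.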
